A study of Homo sapiens with 8 samples.

Results

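Collagens are the main structural proteins of the extracellular matrix, and the genes described here are the 44 protein-coding genes that GENCODE release 29 names COL, a type number, A and a chain number. They were found by name, not by their values, among 58735 genes in all, and 31 of them passed the filter on low reads together with 16528 genes. The data are bulk RNA-seq of U2OS, an established human osteosarcoma line, and the 8 libraries fall into 4 groups of 2. Control cells carried a control shRNA (genotype WT in the labels), KD cells carried a shRNA against WSB2, and each kind of cell was left without stimulus or given TNF-α for 5 h. All groups are the same line in the same medium and differ in the shRNA and the stimulus. Which WSB2 shRNA and which TNF-α concentration were used for these libraries is not given in the sources used here, and whether the 2 libraries of a group came from separate cultures is not stated, so that p-values measure only the spread between these libraries.

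Each collagen molecule is built from 3 chains that wind around each other along stretches in which glycine opens every Gly-X-Y repeat. Fibrillar collagens (types I, II, III, V, XI, XXIV and XXVII) have 1 long such stretch and form the cross-banded fibrils of bone, skin and vessels. The fibril-associated collagens, called FACIT, sit on the surface of fibrils. Type IV forms the sheet of basement membranes, type VI forms beaded filaments around cells, type VII anchors epithelium, and types XIII and XVII span the plasma membrane. Osteoblasts, the bone-forming cells, are known for making type I collagen from chains of COL1A1 and COL1A2. WSB2, the gene knocked down, encodes a substrate receptor of a cullin ubiquitin ligase that the study connected to the NF-κB subunit RelA. TNF-α is the cytokine that activates NF-κB.

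The repeat can be read in the genes themselves. Exons of 54 bases, each 18 codons that begin with a glycine codon, recur through the fibrillar collagen genes. Counted by length alone, exons of 54 bases were 21 of the 51 coding exons of COL1A1, 24 of 52 in COL1A2 and 24 of 51 in COL3A1. The exons below are shown because the levels of these 3 genes are what the results turn on, and because COL1A1 is richer in G and C than COL3A1, a property that reappears below. They are read from GRCh38 and written 5′ to 3′ on the coding strand, with the 6 glycine codons of each in capitals. The COL1A1 exon is coding exon 26 at chr17:50192994-50193047 on the minus strand, with a GC content of 72.2%. The COL1A2 exon is coding exon 27 at chr7:94413690-94413743 on the plus strand and the COL3A1 exon is coding exon 26 at chr2:188997336-188997389 on the plus strand, both with a GC content of 59.3%.
COL1A1: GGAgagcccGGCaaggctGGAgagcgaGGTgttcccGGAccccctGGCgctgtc
COL1A2: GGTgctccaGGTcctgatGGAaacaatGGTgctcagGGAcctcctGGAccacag
COL3A1: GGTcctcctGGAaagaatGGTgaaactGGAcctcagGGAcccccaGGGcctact
The longest unbroken run of glycine at the first place of the repeat spanned 338 repeats in COL1A1, 339 in COL1A2 and 343 in COL3A1. It spanned 217 in the fibrillar COL27A1 and 113 in COL9A2 and COL22A1, which are FACIT collagens. In the transmembrane COL13A1 it spanned 44.

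Before any collagen is described, the libraries themselves have to be. Whole reads could be recovered from the deposited FPKM values (fragments divided by gene length and by library size), and they added up to between 15601098 and 18677023 per library. WSB2 stood at 27.7 and 28.0 FPKM in unstimulated control cells against 8.38 and 8.52 in KD cells, and at 25.0 and 25.3 against 9.002 and 9.18 with TNF-α, so every KD library was below every control library. Both unstimulated KD libraries stood apart from the other 6. Their mitochondrial reads were 4.10% and 4.42% of all reads against 1.11% to 2.03% elsewhere. The mean GC content of the genes' longest annotated transcripts, weighted by reads, was 49.4% and 49.9% against 52.5% to 53.2%. Read sequences were not examined, so this value also moves with the genes expressed. Each had been divided by a library size 1.21 times its read total, against 0.925 to 1.03 times in the other 6. Every comparison that uses these 2 libraries carries this difference, which cannot be told apart from the knockdown without TNF-α. The 2 unstimulated control libraries also differed from each other. Library 1 was below library 2 in COL12A1 (13.8 against 27.2 FPKM) and COL6A3 (11.1 against 17.9), with 12481 and 19633 exon bases. It was closer in COL4A2 (76.1 against 82.4, 19293 bases) and higher in COL26A1 (3.49 against 2.43, 3156 bases). Comparisons with unstimulated control cells carry this spread, and its relation to length was not tested. Of the 7 osteoblast lineage markers, 4 reached 1 FPKM in a group. SPARC, a collagen-binding protein of bone matrix, was at 216 to 293 FPKM. RUNX2 was at 1.29 to 2.94, ALPL at 1.22 to 5.41 and SPP1 at 0.67 to 2.50. The osteoblast genes SP7 and BGLAP stayed under 0.5 FPKM and IBSP had 0 reads. None of the epithelial, hematopoietic, endothelial and muscle markers (10 genes in all) reached 1 FPKM. Of the 4 chondrocyte markers 2 reached it in a group, SOX9 at 21.7 to 38.5 FPKM and ACAN at 0.77 to 1.11. MATN1 stayed at 0.04 to 0.17 and COL2A1, the cartilage collagen, under 0.1. In bulk samples, fewer cells of a type and less RNA per cell cannot be told apart.

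U2OS cells expressed 23 of the 44 collagen genes at a group mean of 1 FPKM or more. A further 8 genes were tested at lower levels (COL1A2, COL11A2, COL4A5, COL4A6, COL9A3, COL14A1, COL15A1 and COL20A1). Another 12 had at most 41 reads over all 8 libraries and were not tested. COL6A5 had 0 reads, which allows up to 0.0023 FPKM at 3 reads over the 8 libraries, a limit that covers counting error only. Collagen reads were 0.624% to 0.764% of all reads.

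**Figure D1:**
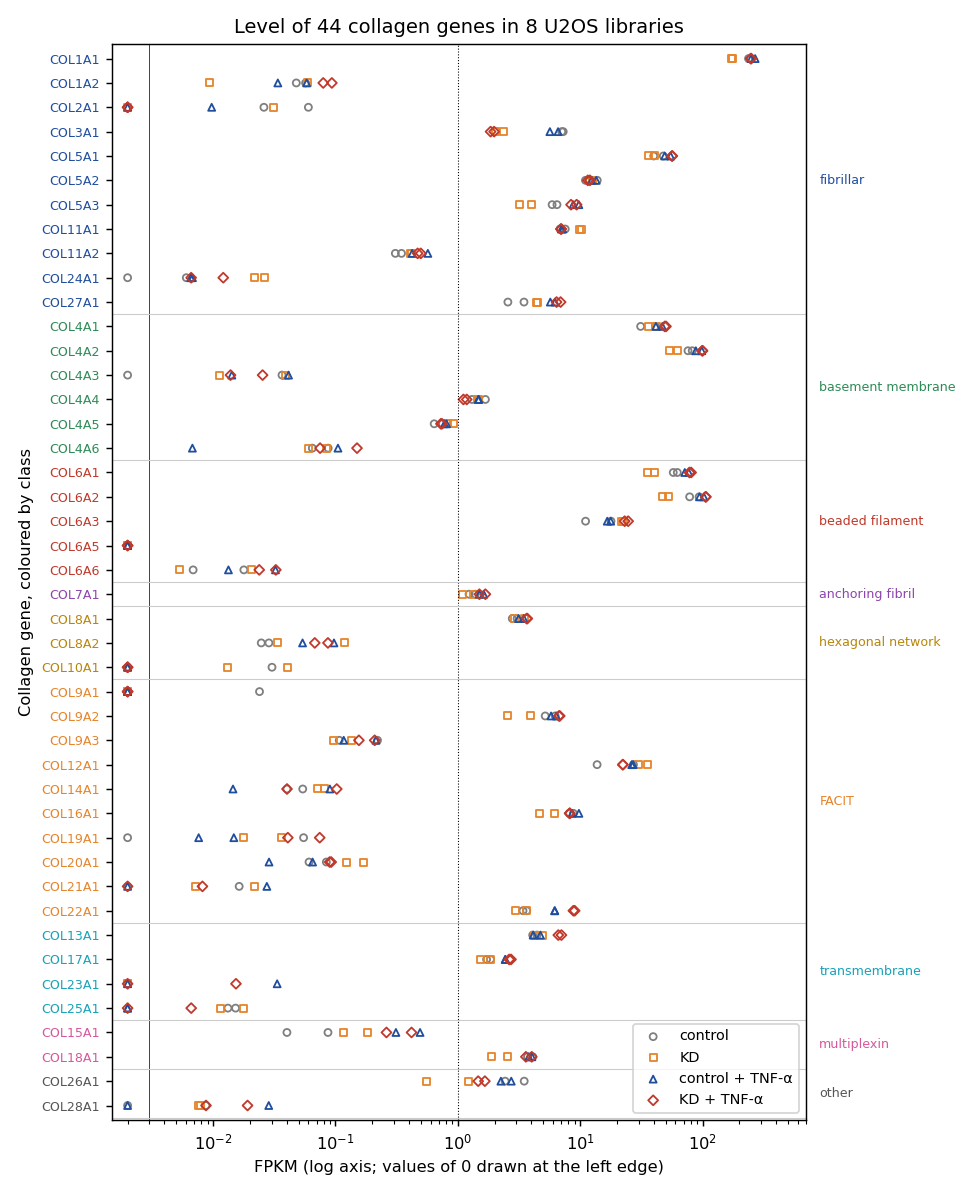
FPKM of the 44 collagen genes (log axis) in the 8 libraries, grouped and coloured by collagen class; each point is a library and the dotted line marks 1 FPKM. COL1A1 lies highest, at 172 to 269 FPKM, COL1A2 lies at or below 0.1 in every library, and the 2 KD groups of COL3A1 lie to the left of both control groups.

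Levels are per length in this unit, where the length is all annotated exon bases of a gene, so comparisons between genes depend on it. COL4A2 had 213414 reads over 19293 bases and COL6A2 61025 reads over 5386 bases, so their order by reads is the reverse of that by FPKM. COL1A1 was the highest collagen gene in every library, with 32.3% to 37.2% of the summed collagen FPKM. COL6A2, COL4A2, COL6A1, COL5A1 and COL4A1 came next. Fibrillar collagens made up 44.3% to 49.4% of the sum, type VI chains 21.3% to 27.4%, type IV chains 17.1% to 20.03% and FACIT collagens 5.14% to 9.24%. The summed collagen level was 639 and 673 FPKM in unstimulated control cells, 533 and 496 in unstimulated KD cells, 719 and 782 in control cells with TNF-α, and 775 and 766 in KD cells with TNF-α. The 2 unstimulated KD libraries were the lowest, and the 2 groups with TNF-α were the highest, with KD libraries inside the range of the control libraries.

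The chains of type I collagen were far from equal. COL1A1 was at 238 and 246 FPKM in unstimulated control cells, 177 and 172 in unstimulated KD cells, 249 and 269 in control cells with TNF-α, and 249.9 and 248 in KD cells with TNF-α. COL1A2, whose chain normally joins that of COL1A1 in type I collagen, was at 0.01 to 0.09 FPKM, with 82 reads over all libraries. The ratio of the mean COL1A1 level to the mean COL1A2 level was 4224, and no library had a ratio below 2676. COL1A2 was called in none of the 5 comparisons.

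Other chain partners differed in balance. The type VI chains were within a few fold of each other, as were COL4A2 with COL4A1 and COL5A1 with COL5A2. The mean COL4A4 level was 61.5 times that of COL4A3. Over the 8 libraries COL8A1 averaged 3.27 FPKM against 0.064 for COL8A2, and COL11A1 7.85 against 0.43 for COL11A2. COL9A2 averaged 5.45 against 0.157 for COL9A3. COL6A1 and COL6A2, which pair in type VI collagen and lie on chromosome 21, had a ratio of 0.663 to 0.762 in all 8 libraries. COL6A3, the long chain of the same molecule on chromosome 2, moved apart from them: the ratio of COL6A1 to COL6A3 was 5.62 and 3.23 in unstimulated control cells but 1.86 and 1.59 in unstimulated KD cells. With TNF-α it was 4.30 and 4.35 in control cells against 3.27 and 3.38 in KD cells. The KD libraries were lower in both treatments.

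COL3A1, which encodes the chain of type III collagen, the fibrillar collagen of extensible tissues, was lower in KD cells with and without TNF-α. It stood at 7.27 and 7.07 FPKM in unstimulated control cells and 2.35 and 2.03 in unstimulated KD cells. With TNF-α it stood at 5.66 and 6.60 in control cells against 1.85 and 1.98 in KD cells. All 4 KD libraries were below all 4 control libraries, and KD cells held 0.306 times the control mean without TNF-α and 0.313 times with it. The log2 fold change of FPKM + 1 was −1.36 (SE 0.110, adjusted p = 0.000146) without TNF-α and −1.29 (SE 0.110, adjusted p = 0.00883) with it. On this scale the change of a gene near 1 FPKM comes out smaller than its ratio. The 2 effects differed by 0.07 (SE 0.156, adjusted p = 0.733), so no difference between treatments was detectable. TNF-α itself gave −0.20 (adjusted p = 0.405) in control cells and −0.13 (adjusted p = 0.338) in KD cells.

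The call with TNF-α rested on 4 libraries. The adjusted p was 0.0849 without control library 1 and 0.138 without control library 2 of that treatment, 0.186 and 0.195 without KD library 1 and 2, and 0.0506 with no filter on low reads, with a log2 fold change between −1.38 and −1.19 throughout. COL3A1 shares 0.0147% of its exon bases with another gene, MIR3606.

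COL3A1 was the only collagen gene called between KD and control cells in the presence of TNF-α. Of the 31 tested, 1 was called lower, against 0.0545% of all genes tested, and 0 were called higher, against 0.0605% of all genes. At an unadjusted p under 0.05 there were 4 of 31, against 8.16% of all genes, COL3A1 and 3 that were higher in KD cells. These were COL13A1 at 0.53 (adjusted p = 0.170), COL22A1 at 0.46 (adjusted p = 0.229) and COL6A3 at 0.45 (adjusted p = 0.578). The median log2 fold change of the 31 was 0.03, beside 0.00 over all genes.

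COL13A1 encodes a transmembrane collagen of cell-matrix junctions. With TNF-α it was at 4.13 and 4.74 FPKM in control cells against 6.62 and 7.03 in KD cells, with no overlap. Without TNF-α it was at 4.43 and 4.09 in control cells against 4.89 and 4.27 in KD cells, where the groups overlapped. The difference with TNF-α failed the correction over all genes. COL6A3 stood at 16.7 and 17.8 FPKM in control cells with TNF-α against 24.7 and 23.1 in KD cells, again with no overlap. Its call turned on the unstimulated control libraries, 11.1 and 17.9 FPKM, which enter the shared estimate of the spread. The SE was 0.181 with all libraries. Without library 1 or library 2 of them it was 0.062 or 0.0625, the adjusted p was 0.0391 or 0.0405, and 2 collagen genes were called.

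COL3A1 was set against the other fibrillar collagens in the same library. This removes only part of what they share, because genes below 1 FPKM hardly move on the FPKM + 1 scale. The measure is log2(FPKM + 1) of COL3A1 minus the mean over the other 8 tested fibrillar genes, COL1A1, COL1A2, COL5A1, COL5A2, COL5A3, COL11A1, COL11A2 and COL27A1. It was −0.07 and −0.25 in unstimulated control cells and −1.44 and −1.50 in unstimulated KD cells. With TNF-α it was −0.65 and −0.53 in control cells against −1.92 and −1.85 in KD cells. The KD libraries were lower in each treatment, by 1.31 without TNF-α and 1.29 with it on average, against a pooled SD of 0.0826 between libraries of a group. The mean difference of KD minus control was −1.30. A two-sided exact permutation test within treatments gave p = 0.0556, which is the smallest p that its 36 arrangements allow. COL3A1 had been singled out with results of these data known, so this difference is a description.

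**Figure D2:**
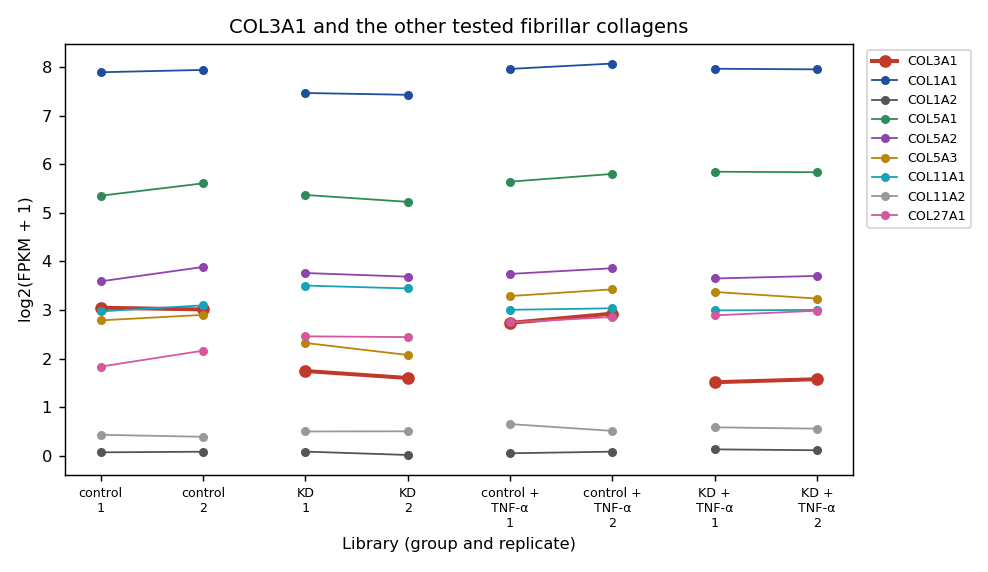
log2(FPKM + 1) of COL3A1 (thick red line) and the 8 other tested fibrillar collagens in each library; lines join the 2 libraries of a group. COL3A1 lies between 2.73 and 3.05 in the 4 control libraries and between 1.51 and 1.74 in the 4 KD libraries, while COL1A1 and COL5A3 dip only in the unstimulated KD libraries.

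The nearest collagen gene to COL3A1 on the chromosome did not move with it. COL5A2, which encodes a chain of type V collagen, the collagen at the core of type I fibrils, lies 19149 bases from COL3A1 on the other strand of chromosome 2. It was at 11.0 and 13.8 FPKM in unstimulated control cells, 12.6 and 11.9 in unstimulated KD cells, 12.4 and 13.5 in control cells with TNF-α and 11.5 and 12.0 in KD cells with TNF-α. Its log2 fold change for KD was −0.01 (SE 0.110, adjusted p = 0.923) without TNF-α and −0.13 (SE 0.110, adjusted p = 0.891) with it.

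Without TNF-α many collagen genes differed between KD and control cells, as did most genes. Of the 31 tested, 4 were called higher in KD cells, against 29.8% of all genes tested, and 10 were called lower, against 30.2% of all genes. In percent, that is 12.9% and 32.3% of the collagen genes. The median of the 31 was −0.03, beside 0.00 over all genes. Scaling to total reads moved the median of all genes to 0.13 and changed the split of the collagen calls from 4 higher and 10 lower to 7 and 7, so the directions below are relative to the authors' scaling.

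**Figure D3:**
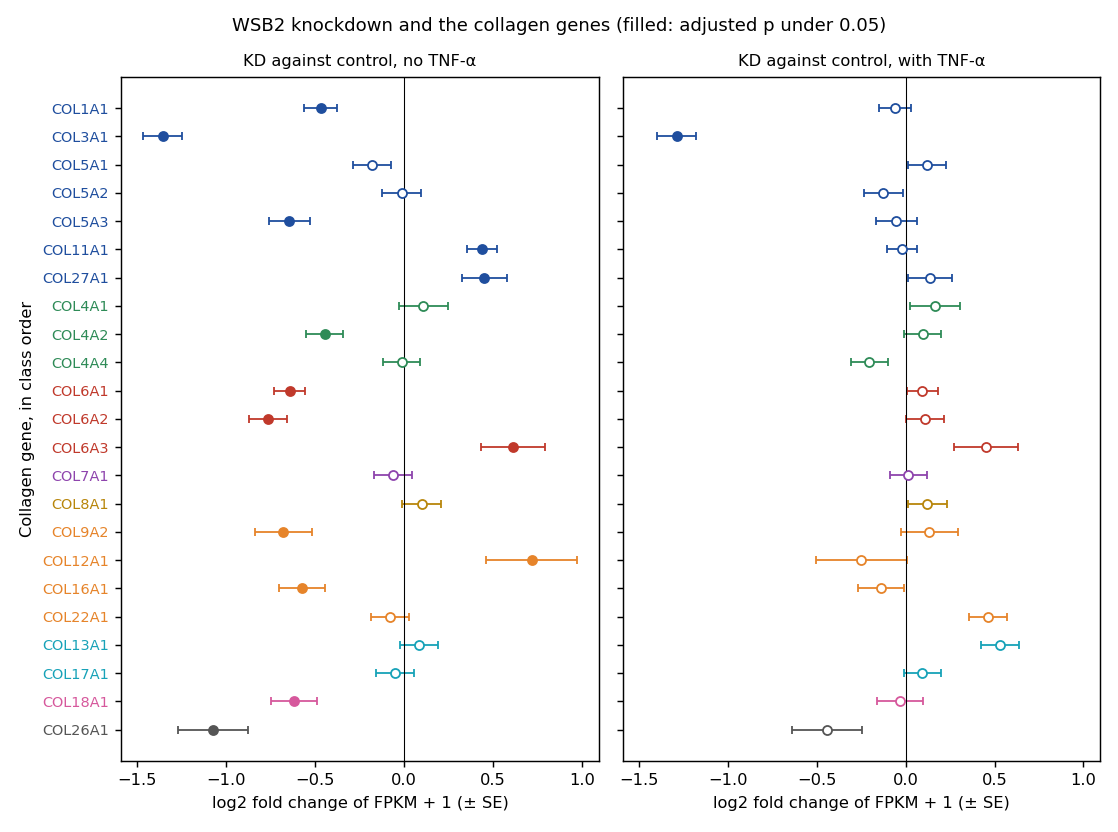
log2 fold change of FPKM + 1, KD against control, with its SE, for the 23 collagen genes at 1 FPKM or more, without TNF-α (left) and with TNF-α (right); filled points have an adjusted p under 0.05 and colours mark the class. The left panel holds 14 filled points on both sides of 0, and the right panel holds 1, COL3A1.

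The fibrillar collagens went both ways. COL1A1 was lower in unstimulated KD cells by the values above, at a log2 fold change of −0.47 (SE 0.0904, adjusted p = 0.00281). COL5A3, a less common chain of type V collagen, was at 5.90 and 6.46 FPKM in control cells against 3.999 and 3.21 in KD cells, a change of −0.65 (SE 0.117, adjusted p = 0.00207). COL11A1, a chain of type XI collagen that limits fibril width in cartilage, was higher, at 6.85 and 7.55 FPKM in control cells against 10.3 and 9.89 in KD cells, a change of 0.44 (SE 0.0842, adjusted p = 0.00274). COL27A1, a fibrillar collagen of cartilage and its edge with bone, was at 2.57 and 3.47 against 4.49 and 4.43, a change of 0.45 (SE 0.125, adjusted p = 0.0151). No group of these 4 genes overlapped the other. COL5A1, the main chain of type V collagen, was at 39.9 and 47.8 against 40.4 and 36.5 FPKM, which overlapped and was not called (−0.18, adjusted p = 0.177). Without control library 1 it was called lower (−0.31, adjusted p = 0.0265). COL27A1 lost its call without KD library 1 or KD library 2 (adjusted p = 0.0651 and 0.0637), and its change was 0.29 without control library 1 and 0.62 without control library 2.

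Type VI chains split by gene. COL6A1 was at 62.2 and 57.7 FPKM in unstimulated control cells and 40.3 and 35.8 in KD cells, a log2 fold change of −0.64 (SE 0.0891, adjusted p = 0.000617). COL6A2 was at 93.8 and 78.5 against 52.9 and 47.4, a change of −0.77 (SE 0.107, adjusted p = 0.000648). COL6A3 was at 11.1 and 17.9 against 21.6 and 22.5, a change of 0.61 (SE 0.181, adjusted p = 0.0198). The first 2 fell while the last rose, although the 3 chains form 1 molecule. The COL6A3 call was lost without KD library 1 (adjusted p = 0.0622) or KD library 2 (adjusted p = 0.0881), and the change was 0.29 without control library 1 and 0.93 without control library 2.

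COL4A1 and COL4A2 encode the chains of the common type IV collagen of basement membranes and share a promoter region on chromosome 13, from which they are read in opposite directions. COL4A2 was at 76.1 and 82.4 FPKM in unstimulated control cells and 62.4 and 53.5 in KD cells, a change of −0.45 (SE 0.102, adjusted p = 0.00637). COL4A1 was at 31.2 and 41.2 against 41.8 and 35.9, a change of 0.11 (SE 0.138, adjusted p = 0.526), with overlapping groups. Without control library 2 COL4A1 was called higher (0.30, adjusted p = 0.0458). The ratio of COL4A2 to COL4A1 was 2.44 and 2.00 in control cells and 1.49 in both KD libraries, and 2.12, 2.10, 1.99 and 2.02 in the 4 libraries with TNF-α. The unstimulated KD libraries were thus the lowest in this ratio. COL4A2 lost its call without KD library 2 (adjusted p = 0.0529). COL4A4, a chain of the kidney and eye basement membranes, was at 1.11 to 1.68 FPKM in all libraries and was not called.

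The region between the starts of the 2 genes is shown because the 2 genes share it and changed unequally. RefSeq puts the starts 127 bases apart. The interval chr13:110307128-110307313 of GRCh38.p14, on the plus strand, runs to 30 bases past the start of COL4A2, and the capitals mark a CCAAT box and a GC box, GGGCGG.
COL4A1 and COL4A2: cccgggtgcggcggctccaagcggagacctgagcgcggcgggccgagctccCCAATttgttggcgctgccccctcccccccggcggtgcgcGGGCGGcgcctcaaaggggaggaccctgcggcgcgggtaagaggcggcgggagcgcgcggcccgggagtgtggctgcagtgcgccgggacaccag
Both motifs were searched on both strands of all RefSeq promoter windows, from 250 bases before to 50 after each start, where CCAAT matched 34.6% and GGGCGG 44.95% of 35116 windows. Of the 44 windows found for 32 of the collagen genes, 14 and 24 matched.

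Among the FACIT collagens, COL12A1 alone was higher in unstimulated KD cells. It encodes a collagen of tendon, ligament and bone surfaces and was at 13.8 and 27.2 FPKM in control cells against 30.02 and 35.4 in KD cells, a change of 0.72 (SE 0.255, adjusted p = 0.0409). The control libraries were further apart than the group means. Leaving out any library except control library 2 ended the call. The change was 0.25 without control library 1 (adjusted p = 0.0678) and 1.19 without control library 2. Without KD library 1 the adjusted p was 0.0735, without KD library 2 it was 0.178, without control library 1 or 2 with TNF-α it was 0.0602 or 0.0603, and without either KD library with TNF-α it was 0.0572. COL9A2, a cartilage chain, was at 6.25 and 5.18 against 3.91 and 2.56, a change of −0.68 (SE 0.160, adjusted p = 0.00735). COL16A1, found near cell-matrix contacts, was at 8.79 and 8.15 against 6.20 and 4.61, a change of −0.57 (SE 0.129, adjusted p = 0.00596). Both were lower in each KD library than in either control library.

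COL18A1, the multiplexin collagen whose C-terminal fragment is endostatin, was at 4.10 and 3.71 FPKM in unstimulated control cells and 2.54 and 1.88 in KD cells, a change of −0.62 (SE 0.128, adjusted p = 0.00393). Of its exon bases, 16.4% lie opposite those of SLC19A1, and since the strand of counting is not given, reads of the 2 genes cannot be told apart there. COL26A1, which has only short stretches of the repeat, was at 3.49 and 2.43 against 1.23 and 0.56, a change of −1.07 (SE 0.198, adjusted p = 0.00227). With TNF-α it was at 2.25 and 2.73 against 1.47 and 1.66, a change of −0.44 that missed the threshold (adjusted p = 0.628). Its ratio of KD to control mean FPKM was 0.302 without TNF-α, near that of COL3A1, and 0.628 with it. COL7A1, COL8A1, COL13A1, COL17A1 and COL22A1 were not called without TNF-α, with log2 fold changes from −0.08 to 0.10.

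Stimulation with TNF-α for 5 h in control cells raised 3 collagen genes. They were COL22A1, COL27A1 and COL15A1, 3 of 31 against 3.1% of all genes tested, and 0 were called lower against 1.14% of all genes. At an unadjusted p under 0.05 there were 7 of 31, all higher, against 17.5% of all genes in either direction. The median log2 fold change of the 31 was 0.10, beside 0.01 over all genes.

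COL27A1 rose from 2.57 and 3.47 FPKM to 5.70 and 6.24, 1.98 times the unstimulated mean, with a log2 fold change of 0.80 (SE 0.125, adjusted p = 0.0136). COL22A1, a FACIT collagen of muscle-tendon and other tissue junctions, rose from 3.65 and 3.41 to 6.19 and 6.20, 1.75 times, with a log2 fold change of 0.67 (SE 0.107, adjusted p = 0.0148). COL15A1, a multiplexin collagen next to basement membranes, went from 0.04 and 0.09 to 0.49 and 0.31, with a log2 fold change of 0.40 (SE 0.0855, adjusted p = 0.0466). In all 3 genes both stimulated libraries were above both unstimulated ones. COL15A1 stayed below 1 FPKM, 2.06% of its exon bases lie opposite AL136084.3, and its call was lost on leaving out any 1 of the 8 libraries, with an adjusted p of 0.0508 (without unstimulated control library 2) to 0.228 (without stimulated control library 1). COL27A1 and COL22A1 lost their calls without stimulated control library 1 (adjusted p = 0.0704 and 0.101) or 2 (adjusted p = 0.119 and 0.117). Without unstimulated control library 2 7 genes were called higher, with COL12A1 at 0.91 (adjusted p = 0.00332), COL6A3 at 0.59 (adjusted p = 0.00622) and COL4A1 at 0.49 (adjusted p = 0.0339) among them. Without stimulated control library 1 or 2 there were 0. COL5A3 was next with all libraries, from 5.90 and 6.46 to 8.76 and 9.75 FPKM (0.51, adjusted p = 0.0552).

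**Figure D4:**
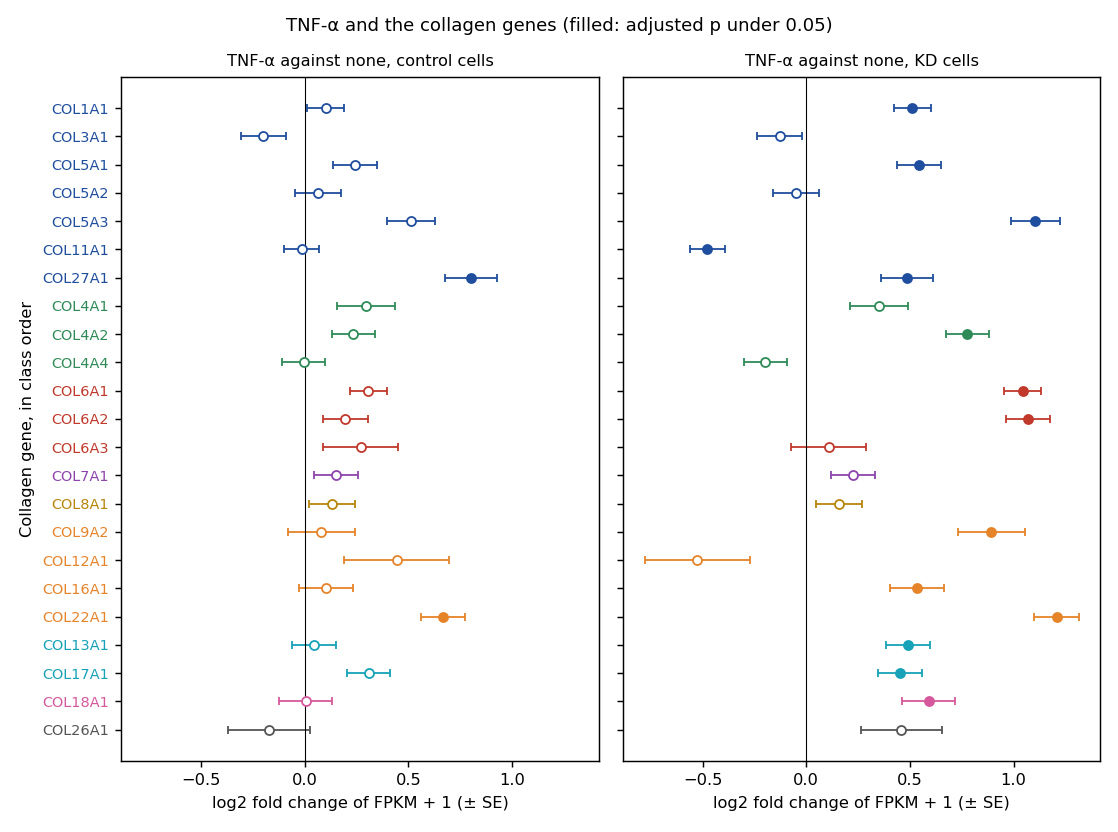
log2 fold change of FPKM + 1, TNF-α against none, with its SE, for the 23 collagen genes at 1 FPKM or more, in control cells (left) and KD cells (right); filled points have an adjusted p under 0.05. COL22A1 and COL27A1 are filled on the left, and 14 genes are filled on the right, 13 above 0 and COL11A1 below.

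In KD cells TNF-α was followed by higher values in 13 collagen genes, against 31.1% of all genes tested, and by a lower value in 1, against 31.4% of all genes. The unstimulated KD libraries described above are the baseline of this comparison. Scaled to total reads, where the median of all genes moved to −0.19, the split was 6 higher and 6 lower. COL22A1 went from 3.67 and 2.94 FPKM to 9.02 and 8.80, 2.70 times the unstimulated mean, with a log2 fold change of 1.21 (SE 0.107, adjusted p = 9.1e-05). COL5A3 went from 3.999 and 3.21 to 9.35 and 8.42 (1.11, adjusted p = 0.000162). COL6A2 went from 52.9 and 47.4 to 106.6 and 105.9 (1.07, adjusted p = 0.000135). COL6A1 went from 40.3 and 35.8 to 80.7 and 78.1 (1.04, adjusted p = 8.1e-05). These 4 genes had the largest changes. The other 9 were COL9A2 (0.89), COL4A2 (0.78), COL18A1 (0.59), COL5A1 (0.54), COL16A1 (0.54), COL1A1 (0.51), COL13A1 (0.49), COL27A1 (0.49) and COL17A1 (0.45). COL11A1 went from 10.3 and 9.89 to 6.95 and 7.02 (−0.48, adjusted p = 0.00168), next to the 7.02 and 7.20 of stimulated control cells. COL12A1 went from 30.02 and 35.4 to 22.3 and 22.4, a difference of −0.53 that was not called with all libraries (adjusted p = 0.108) and was called without unstimulated control library 1 or 2 (adjusted p = 0.00106 and 0.00109). COL17A1, a collagen of epithelial hemidesmosomes, lost its call without unstimulated KD library 2 (adjusted p = 0.0591), and COL27A1 lost its call without that library (adjusted p = 0.0536) or stimulated KD library 2 (adjusted p = 0.0671).

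COL27A1 and COL15A1 have RefSeq promoter windows, and COL22A1 and COL3A1 do not. The 2 are shown because both genes were called higher with TNF-α in control cells, and they are given from 250 bases before to 30 after the start on GRCh38.p14. COL15A1 lies at chr9:98943657-98943936 and COL27A1 at chr9:114155287-114155566, both on the plus strand. Capitals mark GC boxes, GGGCGG, and in COL15A1 also the κB consensus, the sequence type that NF-κB binds.
COL15A1: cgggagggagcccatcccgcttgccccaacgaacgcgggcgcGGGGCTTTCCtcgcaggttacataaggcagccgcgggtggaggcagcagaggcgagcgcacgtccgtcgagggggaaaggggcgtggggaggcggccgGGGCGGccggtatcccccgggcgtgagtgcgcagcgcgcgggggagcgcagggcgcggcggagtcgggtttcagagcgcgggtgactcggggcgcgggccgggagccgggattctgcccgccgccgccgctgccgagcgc
COL27A1: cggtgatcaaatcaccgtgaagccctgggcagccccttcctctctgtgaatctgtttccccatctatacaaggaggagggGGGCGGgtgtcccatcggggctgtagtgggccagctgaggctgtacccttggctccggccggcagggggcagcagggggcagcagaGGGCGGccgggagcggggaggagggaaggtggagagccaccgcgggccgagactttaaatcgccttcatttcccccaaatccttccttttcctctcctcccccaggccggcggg
On both strands the κB consensus matched 5 of the 44 collagen windows, those of COL15A1, COL25A1, COL4A4, COL6A2 and COL7A1, and 11.3% of all windows, and the letters TATAAA matched 8 and 11.5%. A match is a description of the letters in the window, and of these 5 genes only COL15A1 was called for TNF-α in control cells.

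The effect of KD with TNF-α differed from that without it for 10 collagen genes by the interaction term. It was higher with TNF-α for 9, against 23.8% of all genes tested, and lower for 1, COL11A1, against 22.3% of all genes. The 9 were COL1A1, COL13A1, COL22A1, COL4A2, COL18A1, COL5A3, COL6A1, COL9A2 and COL6A2. Scaled to total reads, where the median of all genes moved to −0.14, the split was 2 higher and 3 lower. COL3A1 was not among them. The count fell to 3 without unstimulated KD library 2, to 3 and 5 without control library 1 and 2 with TNF-α, and to 2 and 3 without KD library 1 and 2 with TNF-α.

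The collagen genes that moved in the unstimulated KD libraries were ordered in part by base composition. The 23 genes at 1 FPKM or more had a median GC content of 60.3% (46.3% to 67.2%), against 48.7% over all genes tested, as computed over the longest transcript. Over these 23 genes the KD effect without TNF-α had a Spearman correlation of −0.68 with GC content, or −0.82 over 22 genes without COL3A1, and over 16520 genes it was −0.68. For TNF-α in KD cells the correlation was 0.75 over the 23 genes. For KD with TNF-α it was 0.07 and for TNF-α in control cells 0.02. The points share their libraries, so these values are descriptions. COL12A1 and COL11A1, at 46.3% and 47.3% GC, were higher in unstimulated KD cells, and COL6A2 and COL18A1, at 66.4% and 67.2%, were lower. COL3A1, at 52.1%, and COL27A1, at 61.3%, lay off this order. Other genes departed from it too, such as COL8A1 (0.10 at 46.8%), COL5A2 (−0.01 at 47.95%) and COL7A1 (−0.06 at 64.8%).

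**Figure D5:**
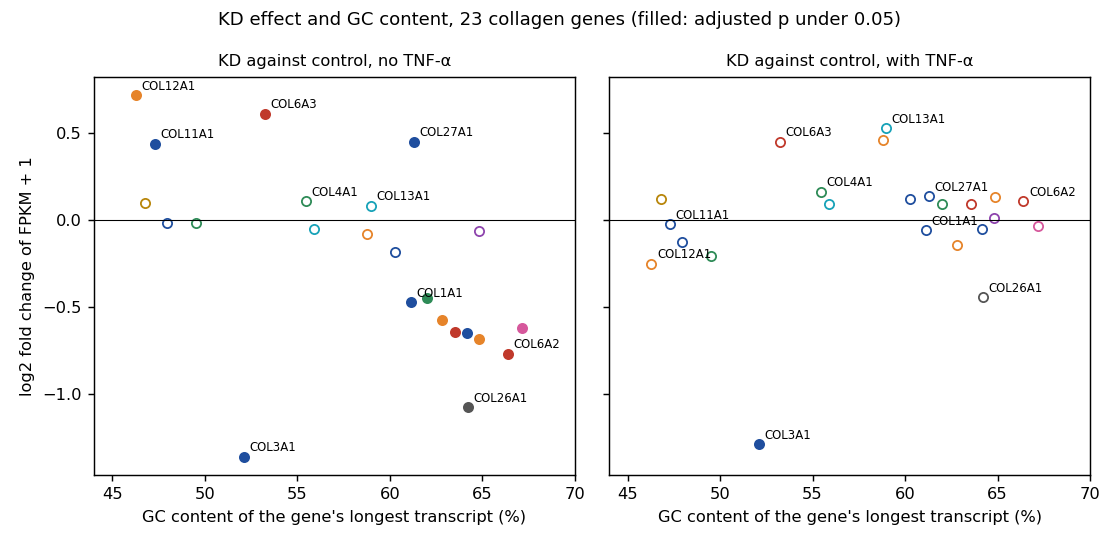
KD effect (log2 fold change of FPKM + 1) against the GC content of the gene's longest transcript for 23 collagen genes, without TNF-α (left) and with TNF-α (right); filled points have an adjusted p under 0.05. The points of the left panel tend to fall with GC content, with COL3A1 and COL27A1 among those off this order. The right panel shows no such order, with COL3A1 at −1.29 and the other genes between −0.44 and 0.53.

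With each library's values corrected for GC content together with gene length, 6 of the 14 genes called for KD without TNF-α were called again in the same direction, and 8 of the 23 were called in all, against 52.3% of all genes. COL3A1 was at −1.24 (adjusted p = 0.000361), COL26A1 at −0.43 (adjusted p = 0.0371) and COL6A2 at −0.22 (adjusted p = 0.0322), which lost its call with GC content corrected alone (−0.18, adjusted p = 0.0565). COL27A1 was at 0.73 (adjusted p = 0.00118), COL6A3 at 0.62 (adjusted p = 0.00620) and COL11A1 at 0.27 (adjusted p = 0.0152). The effect of COL3A1 therefore changed little, and that of COL27A1 was larger than before. COL1A1 (−0.14, adjusted p = 0.0865), COL6A1 (−0.12, adjusted p = 0.120), COL4A2 (−0.17, adjusted p = 0.0856), COL5A3 (−0.18, adjusted p = 0.143), COL16A1 (−0.21, adjusted p = 0.130), COL18A1 (−0.20, adjusted p = 0.149), COL9A2 (−0.08, adjusted p = 0.603) and COL12A1 (0.44, adjusted p = 0.105) were no longer called. COL13A1 (0.50, adjusted p = 0.00225) and COL7A1 (0.29, adjusted p = 0.0273) were called only after the correction, COL7A1 from −0.06 before it.

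For KD with TNF-α the same correction gave COL3A1 again, at −1.30 (adjusted p = 0.00705), and no gene of the 23 changed sign. For TNF-α in control cells it gave COL27A1 (0.65, adjusted p = 0.0110) and COL22A1 (0.56, adjusted p = 0.0117), while COL15A1 lost its call (0.31, adjusted p = 0.121). Values that had not been called moved there too, such as COL5A1 from 0.24 to 0.10 and COL18A1 from 0.00 to −0.13. For TNF-α in KD cells 9 genes were called, against 56.9% of all genes after the correction. Of these, 6 were among the 14 above, namely COL22A1 (0.77), COL5A3 (0.53), COL6A1 (0.43), COL6A2 (0.42), COL4A2 (0.34) and COL11A1 (−0.38). The other 3 were COL3A1 (−0.34, adjusted p = 0.0221), COL8A1 (0.29, adjusted p = 0.0466) and COL7A1 (−0.29, adjusted p = 0.0267), the last of which had been at 0.23 before. For the interaction 3 genes were called, against 35.6% of all genes after the correction. They were COL6A2 (0.31, adjusted p = 0.0468) and COL11A1 (−0.31, adjusted p = 0.0466) as before, and COL27A1 (−0.60, adjusted p = 0.0188). Genes below 1 FPKM are left out of these counts, because the correction shifts values near 0 by the trend of other genes.

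The genes that modify, export and assemble collagen were read from 4 lists. With TNF-α, 0 genes of any list were called between KD and control cells by limma, and at an unadjusted p under 0.05 there were 3 of 24, 2 of 13, 1 of 8 and 2 of 10 in the order in which the lists follow, against 8.16% of all genes. Without TNF-α, 29.8% of all genes tested were called higher in KD cells and 30.2% lower. Of 24 genes for hydroxylation, folding and export, 8 were called higher and 13 lower. PLOD2, a lysyl hydroxylase, was at 1.34 (adjusted p = 0.000133) and MIA3, which loads procollagen at exit sites of the endoplasmic reticulum, at 0.83. SERPINH1, the collagen chaperone HSP47, was at −0.87 (adjusted p = 0.000213), P4HA2, a prolyl hydroxylase subunit, at −0.87 and PPIB, a prolyl isomerase, at −0.93. After the correction for GC content and length 3 were higher and 10 lower, against 52.3% of all genes in either direction. PLOD2 was at 0.53 (adjusted p = 0.00103), SERPINH1 at −0.55 (adjusted p = 0.000822), P4HA2 at −0.94 (adjusted p = 0.00046) and PPIB at −0.54 (adjusted p = 0.00269). MIA3 was at 0.20 and no longer called (adjusted p = 0.136).

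Of 13 genes for propeptide removal and crosslinking, 2 were called higher and 7 lower in unstimulated KD cells, against 29.8% and 30.2% of all genes. ADAMTS3, a procollagen N-proteinase, was at 0.97 (adjusted p = 0.00155). PCOLCE, an enhancer of the C-proteinase, was at −0.92 (adjusted p = 0.000695) and LOXL1, a lysyl oxidase, at −0.89 (adjusted p = 0.00019). After the correction 2 were higher and 6 lower, against 52.3% of all genes in either direction. ADAMTS3 was at 0.55 (adjusted p = 0.0110), PCOLCE at −0.32 and LOXL1 at −0.25.

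Of 8 tested collagen receptors, 4 were called higher and 2 lower, against 29.8% and 30.2% of all genes. The integrin chains ITGA2 and ITGB1, which join in a collagen receptor, were at 1.93 (adjusted p = 0.000274) and 1.26 (adjusted p = 0.000357), and DDR2, a receptor kinase for fibrillar collagen, was at 0.89 (adjusted p = 0.000269). MRC2, which takes up collagen for breakdown, was at −0.63 (adjusted p = 0.00069). After the correction 3 receptors were higher and 1 lower, against 52.3% of all genes in either direction. ITGA2 was at 1.30 (adjusted p = 0.000854) and ITGB1 at 0.70 (adjusted p = 0.00209). DDR2 was at 0.29 (adjusted p = 0.0391), and MRC2 was at −0.18 and no longer called (adjusted p = 0.0532). Of 10 tested fibril partners, 3 were called higher and 2 lower, against 29.8% and 30.2% of all genes. Higher were FN1, fibronectin, at 0.69 (adjusted p = 0.0169), THBS1 at 0.48 and LUM at 0.45. Lower were BGN, biglycan, at −0.92 (adjusted p = 0.00054) and SPARC at −0.38 (adjusted p = 0.00826). After the correction FN1 was at 0.08 (adjusted p = 0.632) and BGN at −0.31 (adjusted p = 0.0556). THBS1 (0.20) and LUM (−0.10) were no longer called either, while SPARC was called again at −0.37 (adjusted p = 0.0038). Then 2 fibril partners were higher and 1 lower, against 52.3% of all genes in either direction.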

How the data were processed

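Bulk RNA-seq was analysed for 8 libraries of U2OS cells in 4 groups of 2, taken from the labels of the samples. The authors deposited FPKM values for 58735 genes. Per the labels' processing notes, CASAVA 1.8, fastp, HISAT2 2.0.5, featureCounts 1.5.0-p3 and DESeq2 1.20.0 were named by the submitters with GRCh38 (hg38), without role or order. The study's methods name sequencing by Novogene on an Illumina instrument, and the authors used edgeR with P under 0.05 and a log2 fold change beyond 1 in either direction. The strand of counting is not given in the sources used here. Identifier, position and strand of all 58735 genes match GENCODE 29. Multiplied by gene length and divided by what 1 read was worth in its library, the deposited FPKM values came out whole (tolerance 0.05 reads) for 100% of values, 15601098 to 18677023 per library.

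FPKM values are not counts, so no count test was run. log2(FPKM + 1) was fitted with limma 3.58.1 (R 4.3.3) with a mean per group over 8 libraries, 4 residual degrees of freedom and a trend on mean expression. The 16528 genes tested had 10 or more reads, scaled to median depth, in 2 or more libraries and a total of 15 or more. A call needs p under 0.05 after Benjamini-Hochberg adjustment. The script was tested on simulated data. Alternatives were a pseudocount of 0.1, other read filters, other scalings, a voom fit of the recovered reads, the 4 libraries compared alone, each library left out, a replicate block, the thresholds of the methods, and a correction of each library for GC content and length (spline, 5 degrees of freedom). The GC correction alone was added after the data were seen. Every collagen gene at a group mean of 1 FPKM or more, or called in a comparison, is named. In the pathway lists, the called genes with the largest changes are named. Members and lists were chosen with earlier results of these data known. Promoter windows are from RefSeq (GRCh38.p14), exons from GENCODE 29.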

Additional observations from a re-analysis of the deposited data

Results flagged for a closer look

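The KD effect with TNF-α differed from the KD effect without it by the interaction term for 10 collagen genes (limma, log2 scale, effect with TNF-α minus effect without). By direction, 9 of the 31 tested were called higher, against 23.8% of all genes tested, and 1 lower, against 22.3% of all genes. The difference was −0.463 for COL11A1, 0.412 for COL1A1, 0.445 for COL13A1, 0.540 for COL22A1, 0.543 for COL4A2, 0.586 for COL18A1, 0.593 for COL5A3, 0.738 for COL6A1, 0.813 for COL9A2 and 0.875 for COL6A2. The adjusted p was lowest for COL6A1 (0.00347) and COL6A2 (0.00364), which kept their calls on leaving out any 1 library, with adjusted p up to 0.0204. COL13A1 had the highest (0.0446) and lost its call in 7 of the 8 leave-outs. Both unstimulated KD libraries, with their lower read-weighted transcript GC content and higher mitochondrial share, enter every one of these differences. After the correction for GC content and length, COL11A1 and COL6A2 were called among the 10. With GC content corrected alone, COL11A1 was called (−0.45, adjusted p = 0.0176) and COL6A2 was not (0.27, adjusted p = 0.0589).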

How the results depend on the processing

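Members not tested had at most 41 reads in all and those tested at least 73, and 2 libraries a group limit every call. For KD with TNF-α, no filter on low reads gave 0 collagen calls, and leaving out 1 library gave 0 to 2. For KD without TNF-α the thresholds of the methods gave 2 calls. For TNF-α in control cells, no filter gave 1 call, the 4 libraries compared alone gave 0, the thresholds of the methods gave 0 and leave-outs gave 0 to 7 (7 without unstimulated control library 2). For TNF-α in KD cells the thresholds gave 4, and the voom fit gave 20 (18 higher, 2 lower). For the interaction, no filter gave 6, total-read scaling 5, the thresholds 0 and leave-outs 2 to 14. Under the correction for GC content and length, 5 of 23 genes changed sign for KD without TNF-α, 4 for TNF-α in control cells, 4 for TNF-α in KD cells, 5 for the interaction and 0 for KD with TNF-α. Among the called results and those of COL3A1 these were COL13A1 in TNF-α in KD cells (−0.0067) and COL3A1 in the interaction (−0.0659), the latter also under total-read scaling (−0.124) and on leaving out a library (down to −0.0242, with 0.167 the highest).

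Under the GC correction alone, chosen after the data were seen, signs turned for TNF-α in KD cells in COL13A1 (−0.0332), COL16A1 (−0.0784), COL18A1 (−0.0754), COL1A1 (−0.0681), COL27A1 (−0.0958) and COL5A1 (−0.0143), for KD without TNF-α in COL1A1 (0.0557) and COL4A2 (0.0948), and for the interaction in COL13A1 (−0.0221), COL18A1 (−0.0276), COL1A1 (−0.112) and COL3A1 (−0.141). A further 17 calls were lost with their sign kept. Counted over all 31 genes, that correction gave 15 higher and 3 lower for KD without TNF-α, for which the share of all genes is not given here. The one for GC content and length gave 9 and 4, against 52.3% of all genes in either direction. Of these 13 calls, 5 were genes below 1 FPKM (COL11A2, COL15A1, COL1A2, COL20A1 and COL9A3), where the correction shifts values near 0. COL15A1 for TNF-α in control cells was at 1.61 with a pseudocount of 0.1 and 2.61 in the voom fit. A pseudocount of 0.1 moved the log2 ratio of COL3A1 to the other fibrillar collagens to −1.65. Replicate differences of the groups correlated at −0.191 to 0.350, so the numbers were not shown to pair the libraries. With a replicate block the counts stayed within 1 call of those given, and 2 named calls were lost, COL13A1 in the interaction (adjusted p = 0.0648) and COL15A1 for TNF-α in control cells (adjusted p = 0.0749). The cause of these changes was not tested.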
